A study of Harpegnathos saltator with 35 samples.

Results

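Neuronal cultures made from central brains of the ant Harpegnathos saltator were compared after 24 h and after 5 days of 20-hydroxyecdysone (20E), the steroid hormone that drives insect moulting and metamorphosis. The 24 h cultures had first spent 5 days in juvenile hormone III (JH3), the sesquiterpenoid hormone that modifies ecdysteroid action at many life stages. The comparison used 9 of the 35 libraries in the series, 4 from JH3 cultures moved to 20E for 24 h and 5 from cultures kept in 20E. Genes at 1 or more FPKM (read fragments scaled by gene length and by the depth of the library) in 3 or more libraries were tested, which left 9873 of 14001. At that limit, 134 genes reached it in exactly 3 libraries and 158 missed it with exactly 2.

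All cultures came from dissociated central brains plated in a growth medium that carried B27 supplement, insulin, progesterone and, for the first 4 days, an extract of honeybee pupae. The 24 h group had 5 days in 2 µM JH3 followed by 24 h in 2 µM 20E (4 libraries). The 5-day group, called the 20E baseline, had 5 days in 2 µM 20E followed by 30 min in medium with the solvent DMSO (5 libraries). The JH3 baseline had 5 days in 2 µM JH3 followed by 30 min in DMSO medium (4 libraries), and it gave the starting point of the 24 h cultures. Replicates are separate cultures, per the series' design text, and the labels do not state the age, sex or caste of the ants. The 24 h cultures had a JH3 history and were harvested about 1 day later than the baselines. These features cannot be told apart from the shorter exposure to 20E, and whether the DMSO medium still held the first hormone is not stated. The release genes nSyb and Syt1 averaged 142 and 92.8 FPKM at 24 h and 74.8 and 55.3 FPKM at 5 days, and the glial factor repo averaged 12.5 and 12.6 FPKM, so both groups held neuronal and glial transcripts.

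In insects 20E binds a heterodimer of the ecdysone receptor (Ecr) and Ultraspiracle (usp). In Drosophila the receptor first turns on early genes such as E75, Eip74EF and br, whose products then act on early-late and late genes such as Hr3, Hr4 and ftz-f1. Many early genes respond to a new pulse of hormone and then decline. Juvenile hormone acts through a separate receptor, with Kr-h1 as its best known target.

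The authors deposited FPKM values, and the fit used limma on log2(FPKM + 1) with group and sequencing run as terms over all 35 libraries. Differences below are on that scale, 24 h minus 5 days unless stated, each with its standard error and limma's Benjamini-Hochberg adjusted p over the 9873 genes. Because they are adjusted for run they can depart from the ratio of the printed FPKM values, and they understate the change of low genes. In bulk RNA, fewer cells of a type and less RNA per cell cannot be told apart. The 24 h libraries held 6666677 to 10630833 reads and the 20E baseline libraries 8606767 to 14891758. Runs were read from the flow cell in the labels and are called A, B and C. The 24 h libraries came from run B (replicates 1 and 3) and run C (replicates 2 and 4), and the 20E baseline from run A (1 and 2), run B (3 and 5) and run C (4). The slope of log2(FPKM + 1) on log2 gene length, relative to the mean library, lay between 0.00886 and 0.0708 in the 24 h libraries. In the 20E baseline libraries it lay between -0.136 (replicate 3, run B) and 0.134 (replicate 4, run C). The only 5-day library of run C thus had the highest slope. The part of this slope in differences between run B and run C below was not tested.

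Cultures with 24 h of 20E differed from those with 5 days of it at 1665 genes, or 16.9% of those tested. Of these, 944 (9.56%) were higher and 721 (7.3%) lower at 24 h. The FPKM ranges of the 4 and 5 libraries did not overlap for 1712 genes (17.3%), 1011 of them higher (10.2%) and 701 lower (7.1%) at 24 h. Without 24 h replicate 1 the number called was 1098, and without 24 h replicate 3 it was 1053. With the length slope as a covariate 2849 genes were called, including all 1665. In a fit restricted to run B, 371 genes were called. Run C held 2 of the 24 h libraries and 1 of the 20E baseline, so values within run C, here and below, rest on 1 5-day library. In run C alone, 29 of the 1665 had the opposite sign.

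Each called gene was placed by where its 24 h level lay relative to the difference between the baselines. The 20E baseline differed from the JH3 baseline at 2088 genes (21.1%), 958 higher (9.7%) and 1130 lower (11.4%) in 20E. A gene was counted as short of the 5-day level when its 24 h level lay on the JH3 side, as past it when its 24 h level lay beyond, and as off the axis when the baselines were not called different. By this count 920 of the 1665 genes (55.3%) were short, 30 (1.8%) past and 715 (42.9%) off the axis. The comparisons share libraries, so these counts describe positions and are not independent of each other. Seen from the 2088 genes, 44.1% were short at 24 h, 1.44% were past and 54.5% (1138 genes) were not called between 24 h and 5 days. Of those 1138, 253 were also called between 24 h and the JH3 baseline in the direction of 20E, 145 upward and 108 downward.

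**Figure D1:**
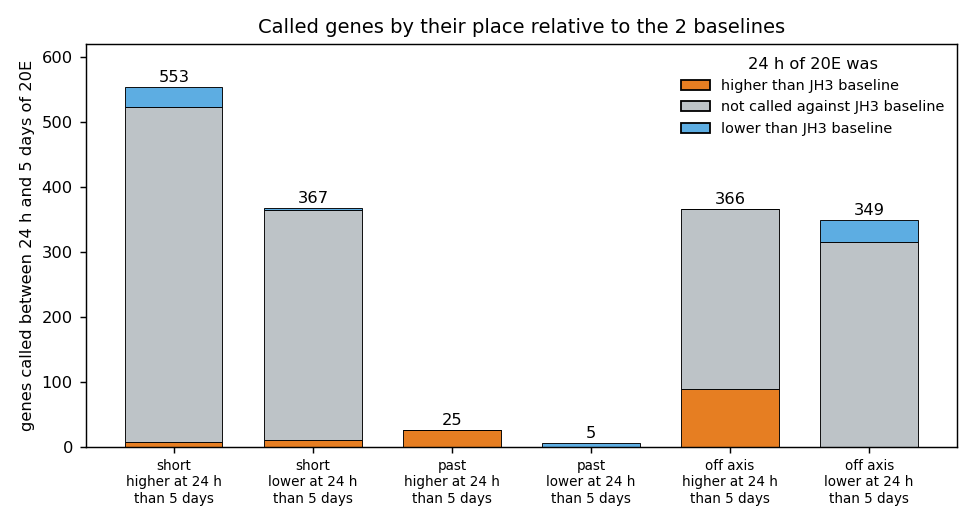
Number of genes called between 24 h and 5 days of 20E (vertical axis), by place relative to the baselines and direction; colours give the call of 24 h against the JH3 baseline. Of the 553 and 367 short genes, 516 and 355 were not called against JH3; the definition of the past class all but fixes a call against JH3 for its 30 genes.

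Among the ecdysone response genes, 5 of 15 tested members were higher at 24 h than at 5 days and none was lower, beside 9.56% and 7.3% of all genes. The list median was 0.46, beside -0.00322 over all genes, with 0.692 in run B and 0.125 in run C. Of the 5, usp and Hr38 were short, E75 was past, and Eip74EF and Hr39 were off the axis. E75, a nuclear receptor and early gene, had 627, 395, 537 and 507 FPKM in the 24 h libraries and 94.3, 85.1, 61.9, 68.0 and 86.2 FPKM in the 20E baseline. The JH3 baseline had 59.4, 45.6, 44.3 and 30.6 FPKM. Every 24 h library was several times above every library of both baselines. E75 was higher by 2.63 ± 0.23 (SE, limma adjusted p = 5.28e-09), by 2.97 within run B and by 2.7 within run C. As the 5-day level itself exceeded JH3 by 0.81 (limma adjusted p = 0.0116), E75 was past the 5-day level, and it stayed past it when any single library of the 3 groups was left out.

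Eip74EF, an ETS-domain early factor, had 55.7, 40.4, 52.2 and 56.4 FPKM at 24 h and 23.4, 15.8, 12.4, 19.3 and 19.5 FPKM at 5 days. The JH3 baseline, at 17.7, 25.0, 14.8 and 10.1 FPKM, covered much the same range as the 20E baseline, and the 24 h libraries lay above both. The difference was 1.43 ± 0.21 (limma adjusted p = 2.21e-05), with 1.73 in run B and 1.26 in run C. Hr39, a nuclear receptor of the Ftz-F1 family, had 17.1, 15.2, 14.8 and 16.5 FPKM at 24 h and 7.79, 6.74, 4.76, 7.96 and 6.35 FPKM at 5 days. Its difference was 1.19 ± 0.17 (limma adjusted p = 1.36e-05), and the baselines did not pass the test against each other (0.27, limma adjusted p = 0.257). Cyp18a1, the P450 that inactivates 20E in Drosophila, was low throughout, with 3.25, 0.830, 2.26 and 1.52 FPKM at 24 h and 0.157, 0.0951, 0.194, 0.240 and 0.0502 FPKM at 5 days. The lowest 24 h library was above the highest 5-day library, and the difference was 1.27 ± 0.17 (limma adjusted p = 7.08e-06). Within run B it was 1.73 and within run C 0.79 (limma adjusted p = 0.119).

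Hr4, Hr3 and E23 had risen from JH3 but did not pass the test against 5 days. Hr4, a nuclear receptor, had 62.1, 44.0, 48.0 and 53.2 FPKM at 24 h and 104, 84.5, 30.7, 125 and 61.3 FPKM at 5 days, with 7.46, 6.65, 5.47 and 1.63 FPKM in the JH3 baseline. The 24 h libraries fell inside the wide 5-day range and far above JH3. Hr4 differed from 5 days by -0.37 ± 0.44 (limma adjusted p = 0.611) and from the JH3 baseline by 3.32 (limma adjusted p = 2.45e-05). The sign of the 5-day difference was not the same in both runs, at 0.32 in run B and -1.35 in run C. Hr3, its relative, had 81.8, 71.9, 67.8 and 77.4 FPKM at 24 h and 71.3, 72.8, 40.4, 113 and 61.2 FPKM at 5 days. It differed from 5 days by 0.14 ± 0.21 (limma adjusted p = 0.708), with 0.57 in run B and -0.59 in run C, and from JH3 by 1.59 (limma adjusted p = 2.21e-05). E23, an ABC transporter that dampens the ecdysone response in Drosophila, had 84.1, 61.6, 58.2 and 86.2 FPKM at 24 h and 58.1, 47.9, 16.2, 61.9 and 35.8 FPKM at 5 days. The groups overlapped narrowly, and its difference of 1.00 ± 0.35 missed the threshold (limma adjusted p = 0.0504). It passed without 20E baseline replicate 4 (0.0305), without JH3 baseline replicate 2 (0.0432) or without JH3 baseline replicate 3 (0.0411).

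The receptor partner usp lay between the baselines. It had 25.9, 15.3, 21.3 and 15.9 FPKM at 24 h and 9.87, 9.09, 4.74, 14.2 and 7.44 FPKM at 5 days, with 46.7, 63.1, 44.2 and 37.0 FPKM in the JH3 baseline. The 24 h range touched neither baseline. At 24 h usp was 1.06 ± 0.26 above 5 days (limma adjusted p = 0.00571) and differed from JH3 by -1.28 (limma adjusted p = 0.00403). The difference from 5 days was 1.82 in run B and 0.13 in run C (limma adjusted p = 0.798), where the only 5-day library was the highest of its group. Ecr itself averaged 5.80 ± 0.50 FPKM at 24 h and 6.17 ± 1.75 FPKM at 5 days (SD, n = 4 and 5) and was not called (-0.07, limma adjusted p = 0.799). The competence factor ftz-f1 averaged 11.4 ± 3.27 FPKM at 24 h, 7.40 ± 2.7 FPKM at 5 days and 42.7 ± 20.0 FPKM in JH3. It was called against JH3 (-1.81, limma adjusted p = 0.000935) and not against 5 days (0.53, limma adjusted p = 0.271). Eip93F, Blimp-1, br, Eip63E and ImpL2 were also not called between 24 h and 5 days, with differences between -0.30 for Blimp-1 and 0.46 for ImpL2. ImpL2 was called without 20E baseline replicate 3 (limma adjusted p = 0.044). Hr38, an NR4A-type receptor that is also an activity-induced gene, was higher at 24 h by 1.88 ± 0.55 (limma adjusted p = 0.0187). Its call was lost without 24 h replicate 1 (limma adjusted p = 0.0775) or 24 h replicate 3 (0.0685), and it was short in 2 of the 13 fits that left out a library.

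The 6 h time point of the same switch places these levels in time. E75 averaged 45.0 ± 11.8 FPKM in the JH3 baseline, 488 ± 69.7 FPKM after 6 h of 20E (n = 6) and 517 ± 96.0 FPKM after 24 h (SD). Cyp18a1 likewise averaged 0.243 ± 0.148, 1.84 ± 0.75 and 1.96 ± 1.03 FPKM at the same points. Eip74EF averaged 16.9 ± 6.24, 32.4 ± 4.58 and 51.2 ± 7.40 FPKM, and Hr4 averaged 5.30 ± 2.58, 17.3 ± 4.23 and 51.8 ± 7.79 FPKM. E23 stood at 5.05 ± 1.90, 9.17 ± 2.89 and 72.6 ± 14.7 FPKM, so most of its 24 h level came after 6 h. The usp mean was 47.7 ± 11 FPKM in JH3, 53.0 ± 10.7 FPKM at 6 h and 19.6 ± 4.99 FPKM at 24 h.

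**Figure D2:**
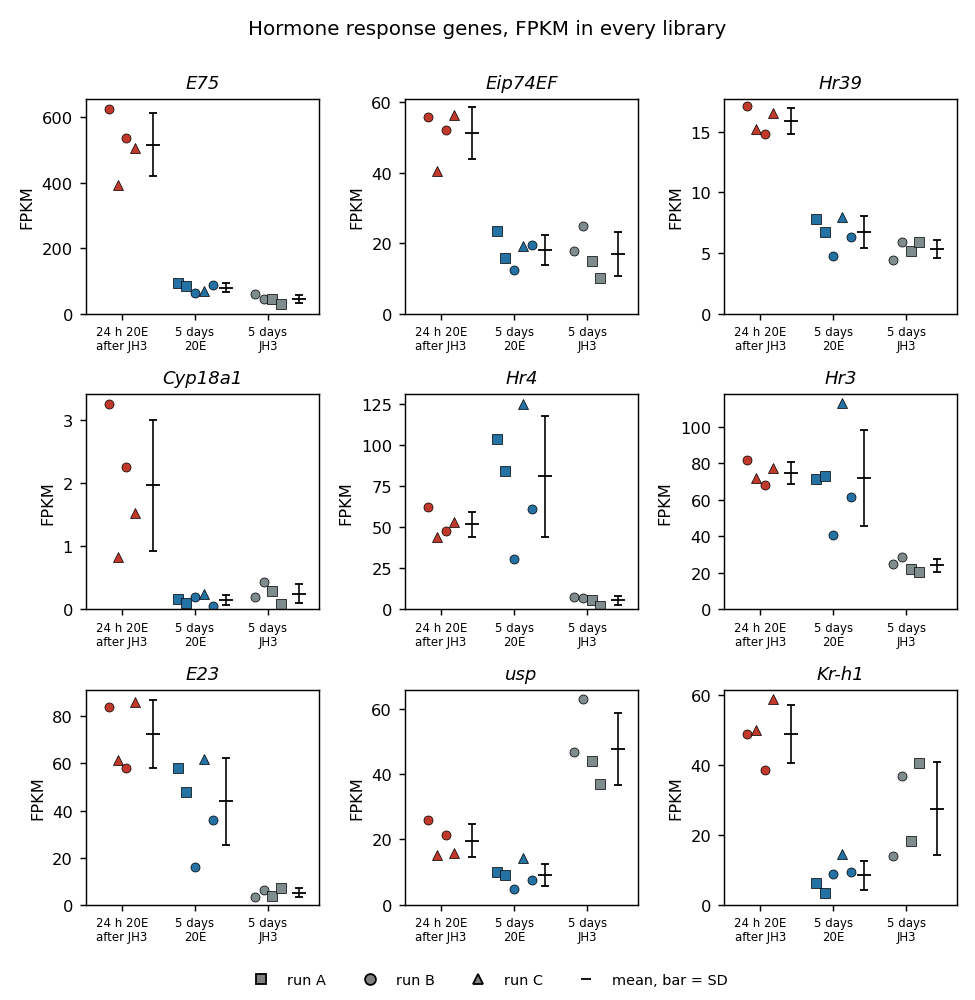
FPKM of 9 hormone response genes (vertical axes, from 0) in each library of the 24 h group, the 20E baseline and the JH3 baseline; symbols mark the run, and the bar beside each group is the mean with its SD. E75, Eip74EF, Hr39, Cyp18a1 and Kr-h1 stand above the 20E baseline in all 4 libraries at 24 h, while Hr4 and Hr3 lie within its range.

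The juvenile hormone list had 4 tested members, of which 2 were higher at 24 h, beside 9.56% of all genes. Kr-h1, the zinc-finger target of juvenile hormone, had 48.8, 49.9, 38.5 and 58.8 FPKM at 24 h, 6.06, 3.26, 8.78, 14.5 and 9.41 FPKM at 5 days, and 14.0, 36.9, 18.3 and 40.7 FPKM in the JH3 baseline. The 24 h libraries were above every 5-day library, and JH3 baseline replicate 4 alone of the JH3 libraries reached their range. Kr-h1 was higher than at 5 days by 2.49 ± 0.40 (limma adjusted p = 8.86e-05), with 2.13 in run B and 1.83 in run C (limma adjusted p = 0.158). Against JH3 the difference was 0.87 and was not called (limma adjusted p = 0.295). In the reverse switch, 20E cultures given JH3 for 24 h, Kr-h1 averaged 61.3 ± 34.8 FPKM (SD, n = 3). Sidpn, a Hairy-related repressor named for its similarity to deadpan, averaged 27.4 ± 3.3 FPKM at 24 h, 13.8 ± 1.86 FPKM at 5 days and 16.7 ± 4.51 FPKM in JH3. It was higher than at 5 days by 0.84 ± 0.16 (limma adjusted p = 0.000436). CycB3 and dpn, at 1.22 FPKM or less on average in all 3 groups, were not called. CycB3 was called lower without 20E baseline replicate 2 (0.0355), 20E baseline replicate 5 (0.0371) or JH3 baseline replicate 4 (0.0232).

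Of the 30 genes past the 5-day level, 25 were higher and 5 lower at 24 h, and 11 had a symbol. Their median absolute difference was 0.714, beside 0.612 for the short genes and 0.527 for those off the axis. The secreted axon guidance ligand sli (Slit) had 27.1, 23.5, 22.9 and 30.1 FPKM at 24 h, 12.6, 15.8, 11.5, 21.3 and 13.1 FPKM at 5 days, and 3.18, 6.65, 3.63 and 7.40 FPKM in JH3. The 3 groups formed separate steps, with 24 h on top. The difference from 5 days was 0.77 ± 0.21 (limma adjusted p = 0.0101), with 0.96 in run B and 0.31 in run C (limma adjusted p = 0.0852 and 0.535). The stathmin gene stai, a regulator of microtubule assembly, had 131, 118, 130 and 123 FPKM at 24 h and 72.6, 84.6, 62.5, 80.3 and 77.3 FPKM at 5 days. It was higher by 0.80 ± 0.15 (limma adjusted p = 0.000487), by 0.90 in run B and 0.58 in run C (limma adjusted p = 0.223). JH3 libraries held 43.5, 44.3, 46.1 and 75 FPKM of stai.

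The adhesion molecule Nrt (Neurotactin) had 37.6, 28.6, 36.2 and 41.3 FPKM at 24 h and 28.3, 17.8, 12.3, 14.5 and 15.7 FPKM at 5 days. The lowest 24 h library and the highest 5-day library nearly met, and the difference was 1.24 ± 0.26 (limma adjusted p = 0.00142). Elk, a voltage-gated potassium channel, had 69.0, 55.5, 58.5 and 76.9 FPKM at 24 h and 38.7, 31.2, 23.3, 50.3 and 40.2 FPKM at 5 days (0.85 ± 0.23, limma adjusted p = 0.0109). For Nrt and Elk the difference between the baselines was near the threshold (limma adjusted p = 0.0251 and 0.0194). Both genes moved to off the axis without 20E baseline replicate 5, JH3 baseline replicate 1 or JH3 baseline replicate 3, Nrt also without 20E baseline replicate 1, and Elk also without 20E baseline replicate 4. The growth coactivator yki (Yorkie) averaged 26.2 ± 2.41 FPKM at 24 h, 17.1 ± 2.82 FPKM at 5 days and 11.1 ± 1.76 FPKM in JH3. Its call (0.60 ± 0.16, limma adjusted p = 0.0111) was lost without 24 h replicate 1 (0.051), and without JH3 baseline replicate 3 it was off the axis. The count of 30 was 18 without 24 h replicate 1, 24 h replicate 4 or JH3 baseline replicate 3, 17 without 20E baseline replicate 5, and 16 without JH3 baseline replicate 1. It was 6 in runs B and C and 1 in run B alone. E75, sli and stai stayed in it when any 1 library was left out.

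Off the axis, 366 genes were higher and 349 lower at 24 h than at 5 days, and 89 and 34 of them were also called against JH3 in the same direction. Besides Eip74EF, Hr39 and Cyp18a1, the named rises in this class included Ets98B, sing, Lar and Ptp10D. Ets98B, an ETS-domain factor, had 5.85, 3.58, 5.21 and 3.89 FPKM at 24 h and 1.03, 1.10, 0.725, 1.36 and 1.20 FPKM at 5 days, a clear separation (1.39 ± 0.19, limma adjusted p = 7.99e-06). The gene sing, which acts in myoblast fusion in Drosophila, had 6.76, 4.70, 7.04 and 7.47 FPKM at 24 h and 1.33, 1.4, 1.5, 1.41 and 2.46 FPKM at 5 days (1.58 ± 0.23, limma adjusted p = 1.91e-05). Both genes were also higher than in JH3, where they averaged 1.65 ± 0.27 and 1.26 ± 0.63 FPKM.

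The receptor tyrosine phosphatases Lar and Ptp10D, which act in axon guidance, were likewise off the axis and higher at 24 h than at 5 days. Lar had 129, 92.2, 98.9 and 119 FPKM at 24 h, 47.3, 45.5, 24.1, 84.8 and 37.4 FPKM at 5 days, and 44.9, 53.4, 40.9 and 49.8 FPKM in JH3. It exceeded the 5-day level by 1.30 ± 0.27 (limma adjusted p = 0.00145), with 1.88 in run B and 0.30 in run C (limma adjusted p = 0.714). The 20E baseline library of run C, replicate 4, was the highest of its group. Ptp10D had 41.7, 27.3, 32.1 and 37.7 FPKM at 24 h and 14.7, 16.9, 9.69, 20.3 and 15.1 FPKM at 5 days (1.19 ± 0.24, limma adjusted p = 0.0012). Its difference was 1.52 in run B (limma adjusted p = 0.0523) and 0.63 in run C. At 6 h Lar averaged 51.5 ± 9.37 FPKM and Ptp10D 17.9 ± 4.72 FPKM. The metalloprotease kuz, which cleaves Notch, averaged 94.4 ± 8.65 FPKM at 24 h, 58.4 ± 11.5 FPKM at 5 days and 48.4 ± 5.33 FPKM in JH3 (0.66 ± 0.12, limma adjusted p = 0.00047). Without 20E baseline replicate 3 kuz was past the 5-day level in place of off the axis. Atg17, a scaffold of the autophagy initiation complex, averaged 77.1 ± 9.52 FPKM at 24 h, 38.4 ± 8.75 FPKM at 5 days and 26.3 ± 3.45 FPKM in JH3 (1.07 ± 0.24, limma adjusted p = 0.00267). The Notch target gene Hey and the adhesion gene side were the named genes with the lowest values off the axis (-1.82 and -1.54, limma adjusted p = 0.0416 and 0.0481). In both genes the groups overlapped, and leaving out a single library ended the call for 8 of the 13 libraries, with limma adjusted p up to 0.11 for Hey and 0.16 for side.

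Of the 553 short genes that were higher at 24 h than at 5 days, 516 were not called against the JH3 baseline, 30 were lower than JH3 and so part of the way down, and 7 were higher than JH3. Of the 367 that were lower than at 5 days, 355 were not called against JH3, 10 were higher than JH3 and so part of the way up, and 2 were lower than JH3. A missing call does not show that a gene was at its JH3 level. Among all 9873 genes, 24 h differed from JH3 at 515 (5.22%), 314 higher (3.18%) and 201 lower (2.04%), and with library weights it differed at 2016.

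Scp2, a sarcoplasmic calcium-binding protein gene, had 193, 99.4, 164 and 158 FPKM at 24 h, 30.2, 22.1, 20.4, 21.4 and 21.5 FPKM at 5 days, and 270, 252, 241 and 106 FPKM in JH3. The lowest 24 h library was more than 3 times the highest 5-day library. Of the JH3 libraries only replicate 4 (106 FPKM) fell within the 24 h range, and the others lay above it. The difference was 2.68 ± 0.30 (limma adjusted p = 3.71e-07), with 3.03 in run B and 2.5 in run C. Ald1, the glycolytic enzyme aldolase, had 85.4, 70.9, 85.4 and 75.7 FPKM at 24 h, 13.6, 13.4, 27.9, 17.1 and 26.7 FPKM at 5 days, and 101, 88.3, 88.7 and 82.5 FPKM in JH3. It was higher than at 5 days by 1.84 ± 0.13 (limma adjusted p = 1.42e-10), and its difference from JH3 was -0.39 (limma adjusted p = 0.127). Mp20, a calponin-family gene known from muscle, had 13.5, 6.13, 9.98 and 4.44 FPKM at 24 h and 0.246, 0.878, 0.248, 0.538 and 0.648 FPKM at 5 days (2.49 ± 0.34, limma adjusted p = 9.41e-06). The gene spab had 399, 204, 403 and 274 FPKM at 24 h and 67.4, 69.5, 60.7, 65.5 and 48.7 FPKM at 5 days (2.25 ± 0.42, limma adjusted p = 0.000425). All 4 kept their call and their place in the short class when any 1 library was left out. A gene with the symbol knockout, likewise short, averaged 8.96 ± 0.97 FPKM at 24 h and 1.65 ± 0.63 FPKM at 5 days (1.81 ± 0.16, limma adjusted p = 5.28e-09). The genes sano, Qbp-1 and Hs3st-A were also short, higher than at 5 days by 1.97, 1.93 and 1.90, though Hs3st-A was off the axis in 6 of the 13 fits that left out a library.

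Other short genes were called against JH3, toward or away from 20E. The clock repressor per (period) had 4.28, 1.89, 3.44 and 2.37 FPKM at 24 h, 0.815, 0.542, 0.517, 0.731 and 0.433 FPKM at 5 days, and 6.48, 7.16, 9.24 and 3.72 FPKM in JH3. It was 1.33 ± 0.20 above 5 days (limma adjusted p = 4.17e-05), with 1.71 in run B and 0.849 in run C. From JH3 it had fallen by 0.85 on the log2 scale (limma adjusted p = 0.0154). Sulf1, an endosulfatase that trims heparan sulfate outside the cell, moved the other way. It had 42.1, 34.0, 35.8 and 34.2 FPKM at 24 h, 7.90, 9.54, 8.79, 8.74 and 9.71 FPKM at 5 days, and 20.7, 17.2, 17.4 and 22.2 FPKM in JH3, so the 3 groups were far apart. Sulf1 was higher at 24 h than at 5 days by 1.89 ± 0.17 (limma adjusted p = 6.56e-09) and higher than JH3 by 0.88 (limma adjusted p = 0.00272), with 1.96 and 1.85 above 5 days within runs B and C. The glutamine synthetase gene Gs2, expressed in glia in Drosophila, had 13.5, 22.3, 11.7 and 16.0 FPKM at 24 h, 5.25, 4.00, 4.15, 4.12 and 5.51 FPKM at 5 days, and 9.84, 8.26, 7.01 and 6.45 FPKM in JH3. It was higher than at 5 days by 1.54 ± 0.21 (limma adjusted p = 1.05e-05) and than JH3 by 0.85 (limma adjusted p = 0.0223). Without JH3 baseline replicate 1 the baselines were no longer called different for Gs2, which made it off the axis.

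Other short genes were higher after 5 days of 20E than at 24 h. Hs3st-B, a heparan sulfate 3-O-sulfotransferase, had 9.36, 5.39, 9.41 and 8.32 FPKM at 24 h, 38.1, 56.3, 28.9, 21.3 and 39.1 FPKM at 5 days, and 23.7, 14.8, 29.0 and 9.68 FPKM in JH3. The 24 h libraries lay below all libraries of both baselines, and the difference from 5 days was -1.82 ± 0.29 (limma adjusted p = 8.74e-05). The baselines were not called different for it without JH3 baseline replicate 4. The helix-turn-helix factor dan (distal antenna) had 3.6, 2.44, 4.13 and 3.54 FPKM at 24 h, 13.8, 11.7, 8.91, 13 and 14.3 FPKM at 5 days, and 5.59, 9.12, 3.88 and 7.17 FPKM in JH3. It was lower than at 5 days (-1.61 ± 0.20, limma adjusted p = 1.7e-06) and lower than JH3 (-0.73, limma adjusted p = 0.036).

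Ror had 5.25, 8.89, 4.99 and 8.72 FPKM at 24 h and 16.6, 16.8, 20.3, 21.6 and 26.3 FPKM at 5 days, with 4.01, 8.22, 4.66 and 13.3 FPKM in JH3. All 4 libraries at 24 h stayed within the JH3 range, whose top was JH3 baseline replicate 4. The other JH3 libraries lay below 24 h replicates 2 and 4. The difference from 5 days was -1.46 ± 0.27 (limma adjusted p = 0.000449). Ddr had 8.66, 7.57, 6.88 and 9.36 FPKM at 24 h and 19.4, 21.0, 14.1, 41.2 and 29.3 FPKM at 5 days (-1.47 ± 0.31, limma adjusted p = 0.00147). NfI, the nuclear factor I transcription factor, had 7.79, 8.38, 6.96 and 7.67 FPKM at 24 h and 16.4, 14.9, 10.1, 36.0 and 13.8 FPKM at 5 days. Its difference was -1.06 ± 0.21 (limma adjusted p = 0.00102), with -0.62 in run B (limma adjusted p = 0.104) and -2.04 in run C, whose 5-day library was the highest. The transcriptional cofactor nab had 6.44, 8.87, 5.27 and 7.12 FPKM at 24 h and 18.9, 17.0, 13.8, 15 and 16.8 FPKM at 5 days (-1.13 ± 0.18, limma adjusted p = 9.88e-05). RfC38, a subunit of the DNA clamp loader, had 1.91, 2.90, 1.93 and 2.52 FPKM at 24 h and 5.88, 6.19, 7.05, 5.30 and 5.73 FPKM at 5 days (-1.09 ± 0.18, limma adjusted p = 0.000146). Aos1, a subunit of the SUMO activating enzyme, had 6.35, 8.60, 7.49 and 9.40 FPKM at 24 h and 18.1, 16.6, 29.0, 13.6 and 19.0 FPKM at 5 days (-1.13 ± 0.27, limma adjusted p = 0.00457). It was off the axis without 20E baseline replicate 3 or JH3 baseline replicates 1, 2 or 3.

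**Figure D3:**
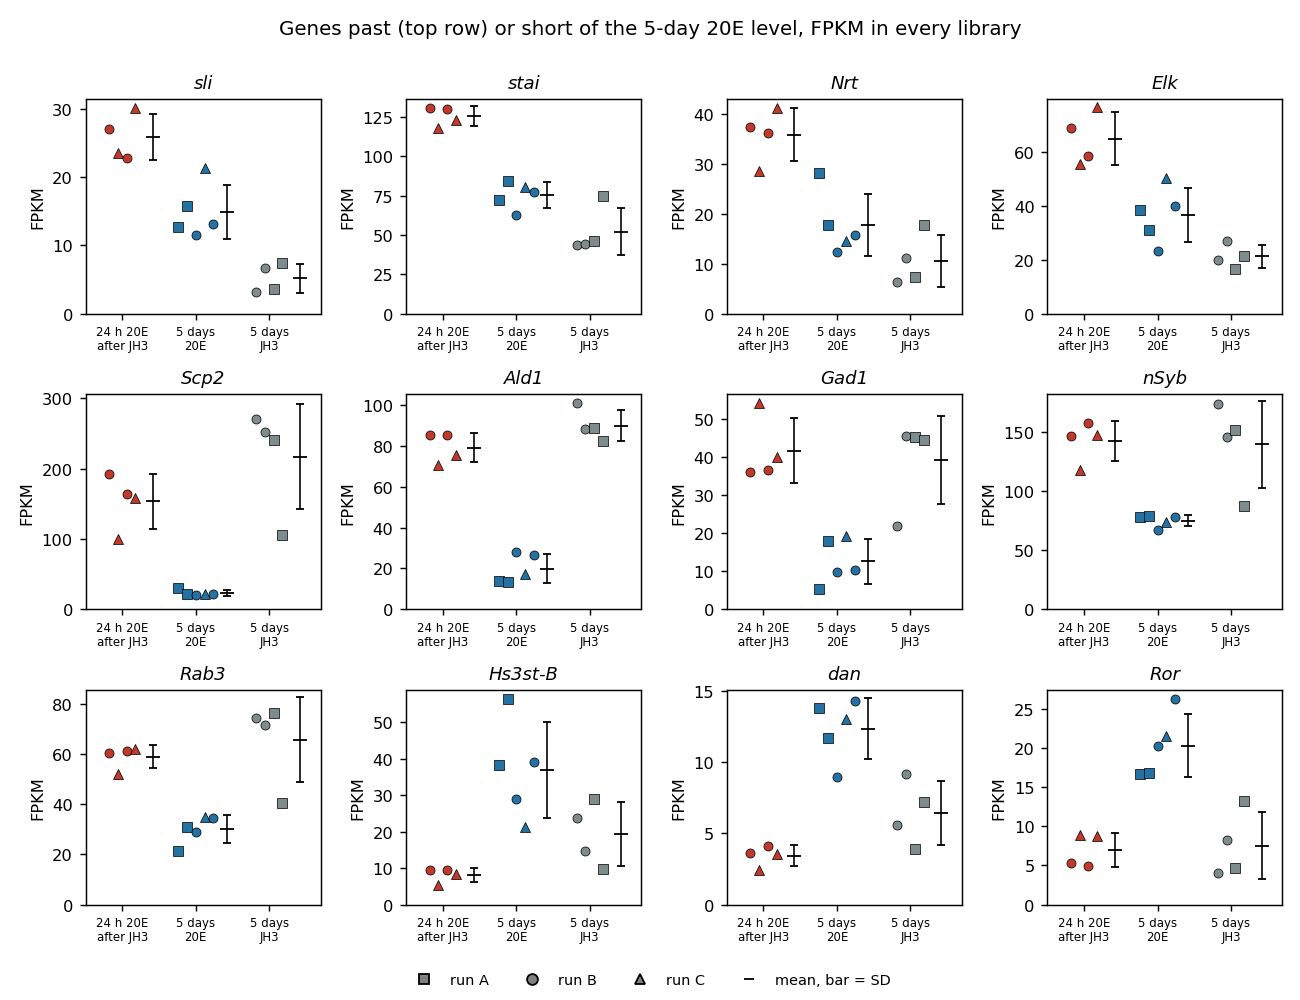
FPKM of 4 genes past the 5-day level (top row) and 8 genes short of it (other rows), in each library of the 24 h group, the 20E baseline and the JH3 baseline; symbols mark the run, and bars are the mean with its SD. In the top row the 24 h libraries are highest. Scp2, Ald1, Gad1, nSyb and Rab3 at 24 h overlap the JH3 range and lie above 5 days. For Scp2, Ald1 and Rab3 that overlap rests on JH3 baseline replicate 4 alone. Hs3st-B, dan and Ror lie below 5 days.

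The list for transmitter synthesis and transport had 8 of 11 members higher at 24 h and none lower, against 9.56% and 7.3% of all genes, with a median of 0.714. Of these 8, 4 were short and 4 off the axis, and none of the 11 was called between 24 h and JH3. Gad1, which makes GABA, had 36.0, 54.0, 36.4 and 39.9 FPKM at 24 h, 5.28, 17.9, 9.70, 19.2 and 10.4 FPKM at 5 days, and 21.8, 45.4, 45.2 and 44.5 FPKM in JH3. The 24 h libraries all exceeded the 5-day ones and lay inside or above the JH3 range (1.68 ± 0.38, limma adjusted p = 0.00282). VAChT, the vesicular acetylcholine transporter, had 42.5, 26.5, 39.2 and 35.6 FPKM at 24 h and 17.0, 18.2, 12.8, 20.3 and 16.9 FPKM at 5 days (1.01 ± 0.18, limma adjusted p = 0.000278). Vmat, the vesicular monoamine transporter, and Ddc, the dopa decarboxylase, were higher by 0.94 ± 0.23 and 0.83 ± 0.17 (limma adjusted p = 0.00457 and 0.0012). Both counted as short, Vmat in 6 and Ddc in 11 of the 13 fits that left out a library, and as off the axis in the others. The count of 8 was 5 without 24 h replicate 1, 2 or 3 or 20E baseline replicate 1 or 3. Within run B 4 were called, and within run C none, with a median of 0.58 there.

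The neuron markers were higher at 24 h for 5 of 11 members and lower for none, beside 9.56% and 7.3% of all genes, with a median of 0.48. The vesicle SNARE nSyb had 146, 117, 158 and 147 FPKM at 24 h, 77.6, 78.6, 66.8, 73.4 and 77.8 FPKM at 5 days, and 174, 145, 152 and 87.4 FPKM in JH3 (0.88 ± 0.15, limma adjusted p = 0.000162). The vesicle GTPase Rab3 had 60.5, 52.0, 61.1 and 61.9 FPKM at 24 h, 21.3, 31.1, 28.9, 34.7 and 34.5 FPKM at 5 days, and 74.5, 71.5, 76.1 and 40.3 FPKM in JH3 (0.87 ± 0.16, limma adjusted p = 0.000436). In both genes every 24 h library lay above every 5-day library. Syt1, the calcium sensor of release, averaged 92.8 ± 8.43 FPKM at 24 h and 55.3 ± 12.1 FPKM at 5 days (0.77 ± 0.19, limma adjusted p = 0.00655). Other members did not follow, as the active-zone gene brp averaged 48.9 FPKM at 24 h and 56.5 FPKM at 5 days (-0.13, limma adjusted p = 0.76) and Syx1A averaged 25.0 and 25.9 FPKM. The summed FPKM of the 11 markers ran from 871 to 1020 at 24 h and from 452 to 1010 at 5 days. The list median was 0.81 within run B and -0.18 within run C.

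Neuropeptides and their receptors were higher for 7 of 15 members and lower for 1, beside 9.56% and 7.3% of all genes. Within run B 3 were called higher and within run C none, with medians of 0.80 and 0.56, and against the 20E cultures given JH3 for 30 min 3 of 15 were higher. The diuretic hormone Dh31 had 37.1, 29.9, 32.3 and 33.6 FPKM at 24 h and 8.96, 18.1, 16.6, 13.8 and 13.4 FPKM at 5 days (1.16 ± 0.30, limma adjusted p = 0.00779), off the axis, or short without JH3 baseline replicate 4. The circadian peptide Pdf was low, averaging 2.12 ± 0.76 FPKM at 24 h and 0.323 ± 0.185 FPKM at 5 days (1.11 ± 0.29, limma adjusted p = 0.00878). Its receptor gene Pdfr had 5.25, 5.12, 5.76 and 5.45 FPKM at 24 h and 0.898, 2.80, 1.93, 2.64 and 2.41 FPKM at 5 days (0.98 ± 0.21, limma adjusted p = 0.00194). The peptide genes Ms (myosuppressin) and Dsk (drosulfakinin) were higher by 1.34 and 1.51, and Dsk lost its call without 24 h replicate 3 (limma adjusted p = 0.106). Without 24 h replicates 1, 3 or 4 the counts higher were 5, 4 and 5. The single lower member lost its call without any of the 24 h libraries or of 20E baseline replicates 2, 4 or 5. The clock list, which also holds Pdf and Pdfr, had 4 of 5 members higher, all short, and a median of 1.11. Besides per, the repressor cwo (clockwork orange) had 17.2, 13.1, 17.3 and 14.3 FPKM at 24 h, 4.25, 6.29, 5.21, 5.38 and 6.65 FPKM at 5 days, and 17.7, 15.4, 16.0 and 12.6 FPKM in JH3. Its 24 h libraries matched the JH3 range and were far above 5 days (1.27 ± 0.15, limma adjusted p = 1.7e-06, with 1.41 in run B and 1.20 in run C). Clk, the activator, was not called (0.36, limma adjusted p = 0.212). The labels do not state the hour of harvest.

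Beside 9.56% of all genes, 2 of 17 ion channels were higher, Elk and the calcium channel cac, and the median was 0.34, with 0.65 in run B and -0.49 in run C. The cac difference of 0.80 (limma adjusted p = 0.0346) was -0.49 in run C, and its call was lost when 24 h replicate 1 or 3 or 20E baseline replicate 1, 3 or 5 was left out (limma adjusted p up to 0.17). Against the 20E cultures given JH3 for 30 min, 6 of the 17 were higher, with a median of 0.658. Of 26 transmitter receptors 4 were higher and 1 lower with a median of 0.0785, and 1 to 3 were higher without any 1 of the 24 h libraries or of 20E baseline replicates 3, 4 or 5. Against the 20E cultures given JH3 for 30 min, 7 of the 26 were higher and the median was 0.494. The octopamine and tyramine receptor Oct-TyrR averaged 36.3 ± 6.93 FPKM at 24 h and 20.1 ± 6.12 FPKM at 5 days (0.98 ± 0.22, limma adjusted p = 0.00312). In the axon guidance and adhesion list 5 of 30 were higher and 4 lower, beside 9.56% and 7.3% of all genes. The median was -0.0774, with 0.0408 in run B and -0.417 in run C. Besides Lar, Ptp10D and sli, the synaptic adhesion gene Nrx-1 had 132, 85.7, 114 and 122 FPKM at 24 h and 66.9, 64.1, 30.5, 71.7 and 53.8 FPKM at 5 days (1.05 ± 0.24, limma adjusted p = 0.00267). Within run B the Nrx-1 difference was 1.57 and within run C 0.50. The Ig-domain gene sns averaged 11.7 ± 1.41 FPKM at 24 h and 26.1 ± 8.84 FPKM at 5 days (-1 ± 0.20, limma adjusted p = 0.00108). It was short of the 5-day level, which was the higher of the baselines. The count of 4 lower was 2 without 24 h replicates 1, 3 or 4 or 20E baseline replicates 3 or 5.

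In the glycolysis and tricarboxylic acid cycle list 5 of 16 members were higher at 24 h and 1 lower, beside 9.56% and 7.3% of all genes, all 6 short, with a median of 0.35. After Ald1 the strongest were Tpi, with 42.7, 41.5, 51.5 and 42.6 FPKM at 24 h and 10.1, 19.0, 26.6, 13.2 and 26.0 FPKM at 5 days (1.18 ± 0.19, limma adjusted p = 0.000105), and Pgk. Pgk had 41.7, 31.6, 44.9 and 36.8 FPKM at 24 h and 21.5, 23.5, 23.4, 13.3 and 20.7 FPKM at 5 days (0.93 ± 0.14, limma adjusted p = 5.39e-05). Both encode glycolytic enzymes, and both were higher within each run. The member that was lower lost its call without 24 h replicate 3 or 20E baseline replicate 5. Nuclear genes of the respiratory chain were higher for 5 of 52 and lower for none, a share near the 9.56% of all genes called higher. Their median was 0.293, with 0.0522 in run B, where none was called higher, and 0.932 in run C, which held 1 library of the 20E baseline. Against the 20E cultures given JH3 for 30 min, 1 of 52 was higher and the median was 0.0609. Their count of 5 ranged from 1 (without 24 h replicate 3 or 4 or 20E baseline replicate 4) to 3 (24 h replicate 2 or 20E baseline replicate 1), 8 (20E baseline replicate 2) and 10 (20E baseline replicate 3), and it was 36 with the length slope as a covariate. ND-75, a complex I subunit, averaged 39.9 ± 2.23 FPKM at 24 h and 26.7 ± 5.90 FPKM at 5 days (0.65 ± 0.14, limma adjusted p = 0.00145). Cytosolic ribosomal protein genes had a median of -0.335 with 1 of 56 called lower (4 without 20E baseline replicate 4, and 0 without any of 24 h replicates 1, 3 or 4 or 20E baseline replicates 1, 3 or 5), and this median was -0.921 in run B and 0.664 in run C. Their summed FPKM ran from 2920 to 3710 at 24 h and from 2180 to 7220 at 5 days, so the 5-day libraries enclosed the 24 h ones.

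**Figure D4:**
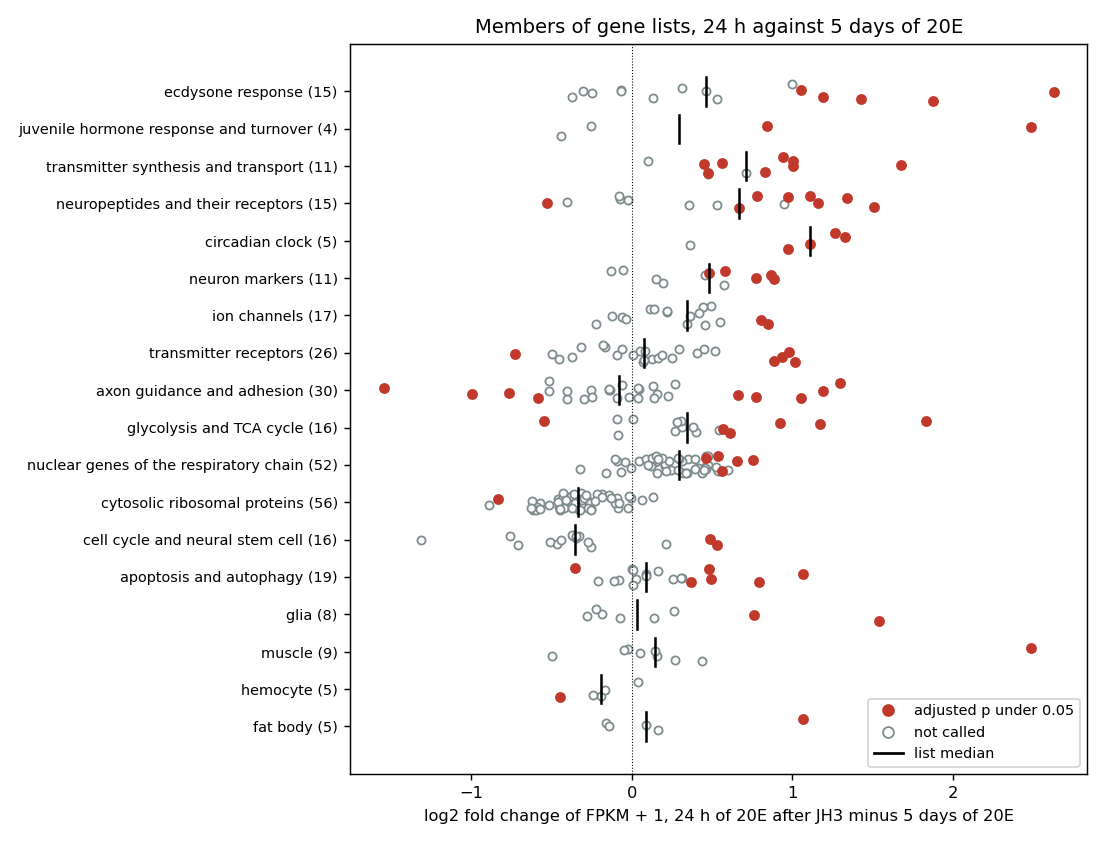
Difference between 24 h and 5 days of 20E (horizontal axis, log2 of FPKM + 1) for each tested member of 18 gene lists, with the number of members in brackets; filled points passed an adjusted p of 0.05 and the vertical bar is the list median. Transmitter genes, the clock genes and 7 neuropeptide genes sit to the right, while ribosomal protein genes sit mostly to the left of 0.

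Markers of other cell types were mostly not called, where 9.56% of all genes were called higher and 7.3% lower. Their part in the results above was not tested. Glial markers had 2 of 8 members higher, Gs2 and the septate junction gene Gli (0.76, limma adjusted p = 0.00365), whereas the glial identity factor repo averaged 12.5 FPKM at 24 h and 12.6 FPKM at 5 days. Summed glial FPKM was 143 to 166 at 24 h and 91.4 to 162 at 5 days. Of 9 muscle markers Mp20 alone was called, while Mhc, the muscle myosin, averaged 4.81 and 4.35 FPKM and Mlc1 14.8 and 14.2 FPKM at 24 h and 5 days. Summed muscle FPKM was 67.5 to 78.7 and 49.1 to 85.7. Hemocyte markers summed to 18.2 to 22.9 FPKM at 24 h and 19.6 to 28.3 FPKM at 5 days, where 1 of 5 (PPO) was lower and lost its call without any 1 of 10 libraries (limma adjusted p up to 0.21). Of 5 fat body markers 1 was higher (Tsf1), which 6 single libraries decided (limma adjusted p up to 0.19), and none of 4 photoreceptor markers was called. The cell cycle and neural stem cell list had 2 of 16 higher, a share near the 9.56% of all genes, and a median of -0.357. The called members were CycE and the cyclin-dependent kinase inhibitor dap, by 0.53 and 0.49 (limma adjusted p = 0.00206 and 0.00646). Between 1 and 3 of its members were called lower when replicate 2, 4 or 5 of the 20E baseline, or 1, 2 or 4 of the JH3 baseline, was left out. Among apoptosis and autophagy genes 5 of 19 were higher and 1 lower, with a median of 0.0895. That median was 0.147 in run B, where none was called, and 0.332 in run C. The higher genes included Atg8a, the ubiquitin-like autophagosome protein, at 94.9 ± 6.37 FPKM at 24 h and 54.7 ± 15 FPKM at 5 days (0.80 ± 0.17, limma adjusted p = 0.00178). Without 20E baseline replicate 4 the count higher was 3.

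The same question was put to 5-day 20E cultures outside the comparison above, those given JH3 for 30 min (3 libraries, 1 in each run). The 24 h libraries are shared, so the values are given side by side and are not a separate replication of the 24 h group. Against these cultures 1322 genes (13.4%) were called, 812 higher (8.22%) and 510 lower (5.17%) at 24 h. Of the 1665 genes, 836 were also called here in the same direction, and 13 had the opposite sign. E75 was higher by 2.57 here (limma adjusted p = 2.03e-07), beside 2.63 against the baseline. Scp2 was higher by 3.26, Sulf1 by 1.66, Kr-h1 by 2.63 and cwo by 0.89, while dan differed by -1.34, Ror by -1.49 and Hs3st-B by -1.44, each called. The past genes sli, stai, Nrt and Elk were also called, at 0.89, 0.59, 1.29 and 1.32. Hr38, with 1 of the 3 libraries at 145 FPKM and the others at 12.5 and 2.98 FPKM, was not called (1.23, limma adjusted p = 0.176). NfI (-0.60, limma adjusted p = 0.0918) and Tpi (0.52, limma adjusted p = 0.103) were not called either. The same held for Ddc, Vmat, Pdf, Dsk, sns, Atg8a, dap, Hey, PPO and Tsf1, all called against the baseline above. In contrast, E23 and Hr3 were called here and not against the baseline. Without 24 h replicate 1 the number called was 658, and without 24 h replicate 3 it was 726.

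Cultures switched the other way, from 5 days of 20E to 24 h of JH3, were of the same age as the 24 h cultures and had 3 libraries, all from run C. They differed from the 20E baseline at 24 genes (0.243%), 20 higher (0.203%) and 4 lower (0.0405%). Run C held 1 library of the 20E baseline, so this comparison leaned on the run term. Its count is not comparable with that between 24 h and 5 days of 20E, and the part of culture age was not tested. E75 averaged 88.2 ± 25.0 FPKM in them and 79.1 ± 13.6 FPKM in the 20E baseline (0.08, limma adjusted p = 0.949). Cyp18a1 averaged 0.107 ± 0.093 and 0.147 ± 0.0759 FPKM in the same order. Kr-h1 was among the genes called (2.62, limma adjusted p = 0.00397), as was Scp2 (2.03, limma adjusted p = 0.00378).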

How the data were processed

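Strand-specific polyA+ libraries were sequenced from 35 cultures in 8 groups. The authors deposited FPKM values per gene. The submitters' processing notes name bcl2fastq, STAR, featureCounts and DESeq2, without roles, and the genome build is not given in the sources used here. Reads could be recovered from the smallest step of each gene's FPKM for 9872 of the 9873 tested genes (99.99% of nonzero values whole within 0.002).

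Genes at 1 FPKM or more in at least 3 libraries were tested with limma 3.58.1 in R 4.3.3, on log2(FPKM + 1), with group and run terms, an intensity trend, robust variances, two-sided tests and Benjamini-Hochberg adjustment at 0.05. The script was tested on simulated data. Symbols came from RefSeq (assembly Hsal_v8.6), which matched 13989 of 14001 IDs and gave 4117 a symbol.

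Named genes were the 12 largest rises and 12 largest falls with a symbol and a mean of at least 2 FPKM, the 6 largest of each class, all ecdysone and juvenile hormone list members, and up to 4 called members of each other list. The genes brp, Syx1A, Clk, repo, Mhc and Mlc1 were named after their values were seen. The members and lists were chosen with earlier results of these data known. Whether replicate numbers pair the cultures was not settled, and the main fit used no block. Alternatives covered the pseudocount, filter, scaling, run term, library weights, length slope, voom on the recovered reads and other baseline groups. Further fits left out each library of the 3 groups, or 2 libraries that stood apart.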

Additional observations from a re-analysis of the deposited data

Results flagged for a closer look

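Per-library values of 44 named genes were examined in the 3 groups, 132 groups of libraries in all, for a library whose gap to its nearest neighbour was large against the group's range. Chance alone picks out about 1 in 20 such groups, and 10 were found here.

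In the 24 h group, replicate 2 stood low for Rab3 (51.99 FPKM) and replicate 3 stood high for Tpi (51.48 FPKM). In the 20E baseline, replicate 1 stood high for Scp2 (30.23 FPKM) and replicate 5 for sing (2.461 FPKM). Replicate 4 of the 20E baseline stood high for NfI (35.99 FPKM) and low for Pgk (13.31 FPKM). In the JH3 baseline, replicate 4 stood high for stai (74.96 FPKM) and low for VAChT (19.19 FPKM) and Rab3 (40.31 FPKM), and replicate 1 stood low for Gad1 (21.83 FPKM). JH3 baseline replicate 4 was also 1 of 2 libraries left out together as standing apart, as given below.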

How the results depend on the processing

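All 1665 genes, or the 1321 of them tested under a limit of 5 FPKM, kept their direction in every alternative fit except run C alone, where 29 had the opposite sign, and the fit with the 20E cultures given JH3 for 30 min as the 5-day group, where 13 did. Among named genes called between 24 h and 5 days, cac (-0.49), CaMKII (-0.15) and RpLP0 (0.25) changed sign in run C. Class counts could not be made in run C, which holds no JH3 baseline library. The cause of these changes was not tested.

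With library weights 2639 genes differed between 24 h and 5 days, 1473 short, 60 past and 1106 off the axis, with 2016 between 24 h and JH3 and 3177 between the baselines. In run B alone these counts were 371, 212, 1, 158, 89 and 567, and with the compared groups only they were 938, 460, 12, 466, 189 and 1217. In runs B and C, 604 were short, 6 past, 272 differed from JH3 at 24 h and 1067 between the baselines. With the length slope 2849 were called, 1765 short and 54 past. With the 20E cultures given JH3 for 30 min as the 5-day group, 580 were short, 19 past and 1207 differed between the baselines. Against those cultures, 837 genes were called in run B and 183 in run C.

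Leaving out 1 library at a time gave 1053 to 1833 genes between 24 h and 5 days, 645 to 1157 short, 16 to 29 past and 377 to 967 off the axis. The same fits gave 337 to 586 genes between 24 h and JH3, 1219 to 2482 between the baselines and 658 to 1630 against the cultures given JH3 for 30 min. The fewest off the axis came without 24 h replicate 1 (377) or 3 (383). Without JH3 baseline replicate 1 the baselines differed at 1387 genes and 24 h differed from JH3 at 338.

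With the replicate block 1421 genes were called, 1353 of them among the 1665. Deviations of same-numbered libraries of the 24 h group and the 20E baseline correlated at 0.0641, -0.0843, 0.269 and 0.124. These deviations were not adjusted for run, and differently numbered libraries were not compared. Whether the numbers pair the cultures therefore stayed undecided. With 4 and 5 libraries and 6666677 to 14891758 reads each, small differences in low genes were not detectable.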
